A study of Danio rerio with 12 samples.

Results

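The 300 genes with the highest mean level in GFP-positive head cells of sham zebrafish larvae are described here, out of the 22962 genes in the deposited table. They were chosen by the mean of their own values over the 6 sham libraries, so the ranks and levels below are a description and carry no test. The larvae carried the *mpeg1:GFP* transgene, in which the *mpeg1* promoter drives GFP, and were sampled at 4 days post fertilisation (dpf). This was the 2 h time point of an experiment in which other larvae had the optic tectum pierced. According to the study's methods, sham larvae were anaesthetised, mounted in agarose and released without injury. The heads of about 180 larvae were pooled for each sample, so a library is the mean of many animals, and GFP-positive cells were collected by FACS. The 6 sham libraries are called sham 1 to sham 6, and the values of the 6 injury samples of the series of 12 were not used here. According to the study, the sham samples were normalised together with the injury samples that it kept. The scaling of the sham values may therefore have drawn on both. The labels give neither the day nor the clutch of a library. The study made sham and injury cDNA in pairs on 1 day for its RT-qPCR, partly from samples that were also sequenced, without saying which. The spread given below is therefore that between these samples and may be partly technical.

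Mpeg1 is a perforin-like protein of macrophages, and its promoter labels macrophages throughout the larva, including the microglia, which are the resident macrophages of the brain. In zebrafish both kinds of cell depend on the receptor tyrosine kinase Csf1r and on the transcription factor Pu.1, encoded by *spi1b*. Microglia take up dying neurons during development and carry much apolipoprotein E and many lysosomal proteases, whereas neutrophils are known for granule enzymes such as myeloperoxidase and matrix metalloproteinases.

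The libraries held 6868772 to 8180104 reads on genes. Values are CPM, the reads of a gene relative to all reads on genes in its library, scaled with TMM factors, which correct for library composition. Reads not counted on a gene are outside these values and the shares below. The limit of detection was set at 3 reads, or 0.349 to 0.423 CPM. At least 1 CPM was reached in every library by 13010 genes. Levels were not divided by transcript length, so a rank says how many reads a gene yielded, and longer transcripts yield more reads per molecule. Between pairs of libraries, the median absolute log2 difference over the 300 genes was 0.13 to 0.23.

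The 300 genes made up 1.31% of the table and took 41.7% ± 0.922 of the reads on genes (SD, n = 6). The lowest share was 40.4% in sham 2 and the highest 42.8% in sham 1. Their mean levels lay between 380.7 and 67503 CPM, with a median of 598 CPM, and the smallest value of any of them in any library rested on 1891 reads. According to the biotypes in the table, 292 of them were protein coding, 3 were long intergenic RNAs, 2 were mitochondrial ribosomal RNAs, and 1 each was another ribosomal RNA, a processed transcript and an antisense gene. In every library, 241 of the 300 genes were among that library's own 300 highest, and 364 genes were among the 300 highest of at least 1 library. At the lower end of the ranking the levels were close together. Just inside stood *ccng1* with 381.7 CPM and *grap2b* with 380.7 CPM, and just outside stood *mki67* with 380.0 CPM and *mcamb* with 378.8 CPM.

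**Figure D1:**
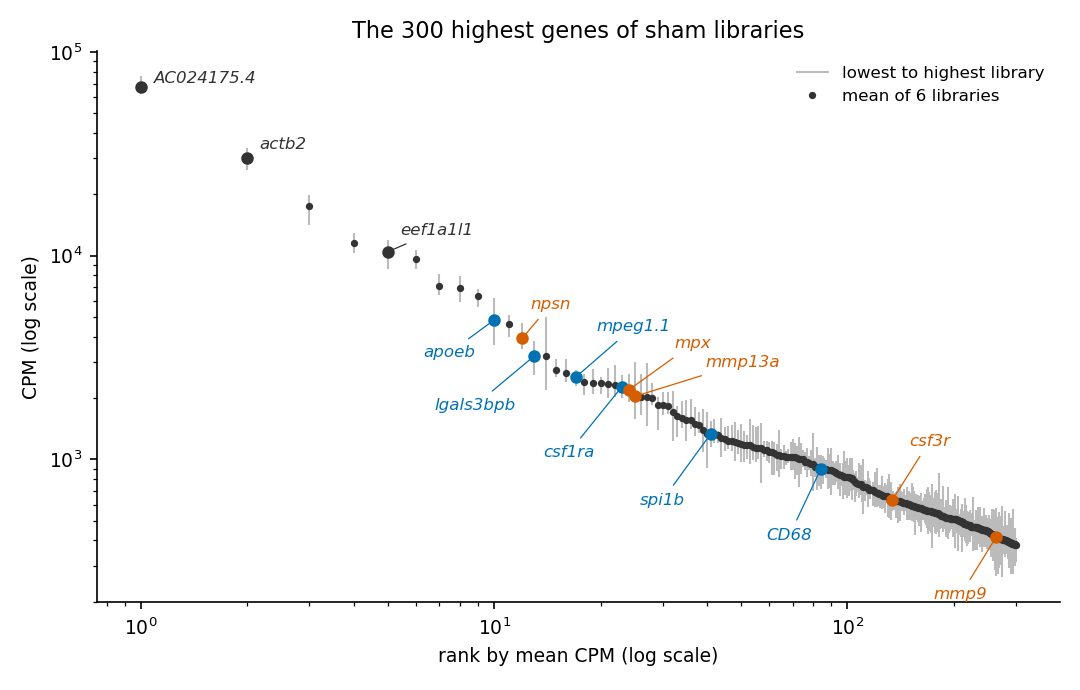
Level (CPM, log axis) of each of the 300 genes against its rank (log axis), with a point at the mean of the 6 sham libraries and a grey line between the lowest and the highest library. Coloured names mark macrophage or microglial genes (blue) and neutrophil genes (orange). *csf3r* is also in orange, although it is on no marker list. The means drop from 67503 CPM at rank 1 to 380.7 CPM at rank 300, and *apoeb*, *mpeg1.1*, *csf1ra* and *mpx* lie at ranks 10, 17, 23 and 24.

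Genes of the macrophage lineage stood high among the 300. *mpeg1.1* (ENSDARG00000055290) was at rank 17 with 2638, 2683, 2731, 2299, 2443 and 2369 CPM in sham 1 to sham 6, a mean of 2527 ± 180 CPM (SD, n = 6). Its 6 values lay close together, with sham 3 the highest (sham 2 under library size alone) and sham 4 the lowest. The related gene *mpeg1.2* was not among the 300, at rank 3045 with 20.9, 77.6, 78.9, 54.5, 23.5 and 107 CPM, so that sham 1 and sham 5 were far below the other libraries.

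Both zebrafish Csf1 receptor genes were members. *csf1ra* (ENSDARG00000102986), rank 23, had 2374, 2082, 2519, 2003, 2591 and 2085 CPM, and *csf1rb*, rank 73, had 1286, 939, 971, 879, 1226 and 730 CPM in sham 1 to sham 6. For *csf1ra* the libraries sham 1, sham 3 and sham 5 were the highest, and for *csf1rb* sham 1 and sham 5 stood above the rest. *spi1b* was at rank 41 with 1332 CPM and a lowest value of 1144 CPM in sham 4, and its paralogue *spi1a* was at rank 217 with 478.8 CPM. *coro1a*, an actin-binding protein of leukocytes, held 1206 to 1372 CPM and was among the members that varied least. *CD68*, a lysosomal glycoprotein of macrophages, averaged 895.3 CPM at rank 84. Of the 22 macrophage lineage markers found in the table, 11 were among the 300 and 21 reached 1 CPM in every library, and the summed level of the list was 13341 to 15858 CPM. The gene that did not was *tyrobp*, an adaptor of activating receptors in mammalian myeloid cells, with a mean of 0.222 CPM, below that limit, and another adaptor gene, *hcst*, was also low, with 1.37 to 6.86 CPM.

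*apoeb* (ENSDARG00000040295), the apolipoprotein E gene that marks zebrafish microglia, was at rank 10 with 6199, 3674, 5757, 3653, 5822 and 3916 CPM in sham 1 to sham 6. Sham 1, sham 3 and sham 5 lay at 5757 CPM and above and sham 2, sham 4 and sham 6 at 3916 CPM and below, a grouping chosen after the values were seen and therefore not tested. *apoc1*, a second apolipoprotein gene, at rank 57, had 1506, 963, 1171, 959, 1445 and 768 CPM, with the same 3 libraries on top. *lgals3bpb*, a galectin-binding glycoprotein of microglia, was at rank 13 and ranged over 2606, 3190 and 3801 CPM (lowest, median and highest), again with sham 1, sham 3 and sham 5 as the highest libraries. The lipid transporters *abca1a* and *abca1b*, which load cholesterol onto apolipoproteins, varied less, with 602.3 to 735.2 CPM and 356.5 to 417.3 CPM. Of 31 microglial markers found, 9 were among the 300, and the sums of the list were 19926, 15181, 19700, 14698, 19310 and 15119 CPM in sham 1 to sham 6. Its highest genes were *apoeb*, *lgals3bpb* and *csf1ra*, and 2 of its genes, *csf1ra* and *slc7a7*, are also on the macrophage lineage list. Of the 27 markers with at least 5 CPM, 11 had sham 1, sham 3 and sham 5 as the 3 highest libraries, against 7.07% of all such genes. Well-known microglial genes outside the 300 were measured too. *mafba*, a transcription factor, averaged 369.1 CPM, *sall3a* 198.1 CPM, *hexb*, a lysosomal hexosaminidase, 192.3 CPM, and *p2ry12*, a purine receptor of microglial processes, 156.4 CPM. The markers *gpr34b* with 0.912 CPM and *olfml3a* with 0.420 CPM were near the limit of detection.

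For 72 of the 300 genes, or 24%, sham 1, sham 3 and sham 5 were the 3 highest libraries, against 7.07% of all genes with at least 5 CPM. These shares depended on the scaling, with 47 members against 5.15% of all genes when only library size was used. Among the 72 were 24 of the 37 ribosomal protein genes, and among the 47 were 12. Within bulk libraries, fewer cells of a type and less RNA per cell cannot be told apart, and the part that the make-up of the sorted cells has in these differences was not tested.

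**Figure D2:**
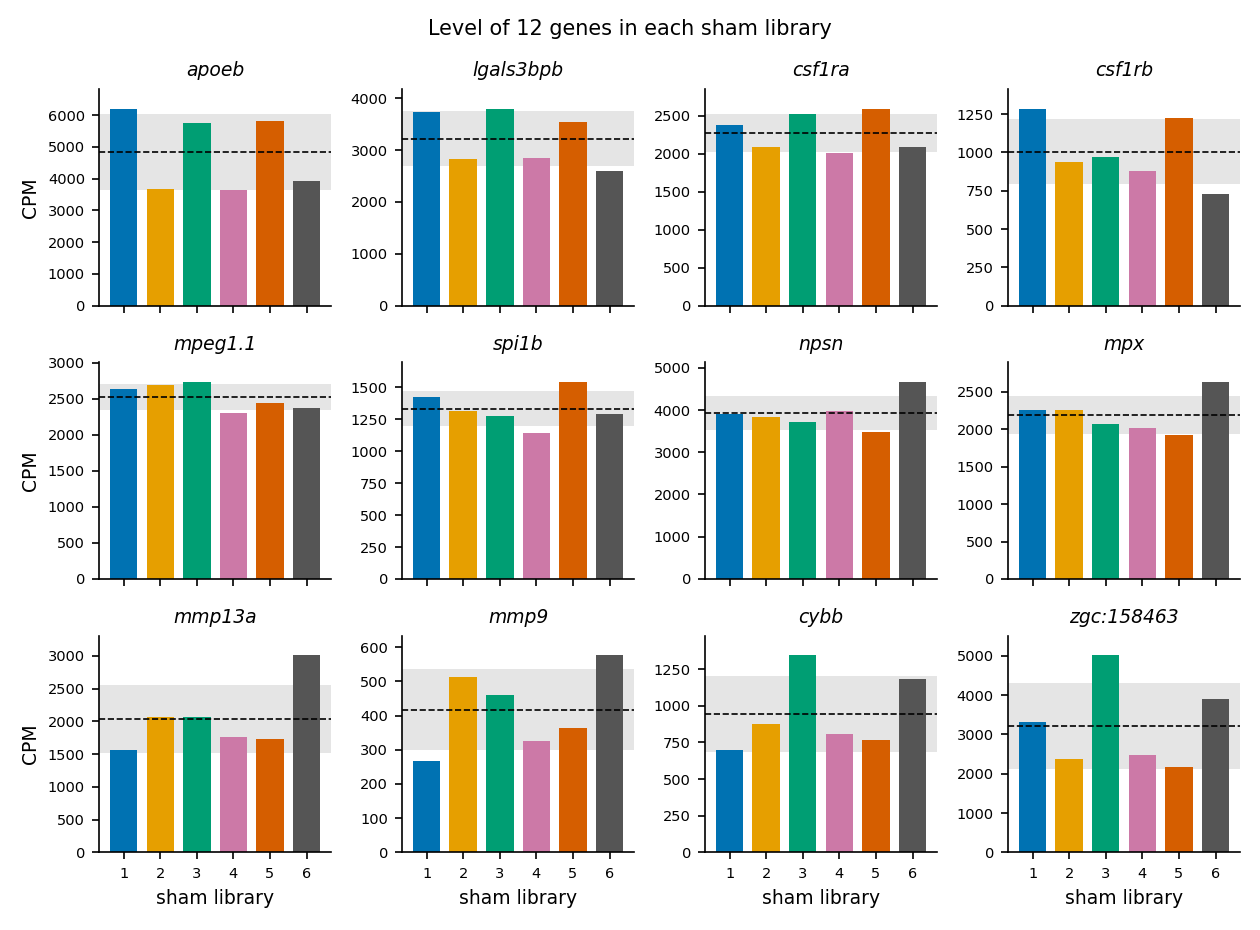
Level (CPM) in each of the 6 sham libraries of 12 genes among the 300, as 1 bar per library, with a dashed line at the mean and a grey band of 1 SD to each side. *mpeg1.1* stays within 2299 to 2731 CPM, *apoeb* splits into 3 libraries at 5757 CPM and above and 3 at 3916 CPM and below, and *mmp13a* has 1 library, sham 6, at 3006 CPM above the other 5.

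Genes of neutrophil granules were among the 300 as well. *npsn*, an astacin-family metalloprotease of zebrafish neutrophils, was at rank 12 with 3895, 3832, 3723, 3983, 3486 and 4662 CPM in sham 1 to sham 6. *mpx* (ENSDARG00000019521), the myeloperoxidase gene, was at rank 24, next to *csf1ra*, with 2250, 2251, 2064, 2010, 1920 and 2629 CPM. *mmp13a*, a collagenase, was at rank 25 with 1570, 2074, 2068, 1768, 1731 and 3006 CPM. Sham 6 was the highest library for these 3 genes, with the widest gap to the others for *mmp13a*. The gelatinase gene *mmp9*, at rank 264, also peaked in sham 6, with 576 CPM, and was lowest in sham 1, with 268 CPM. The fifth member on the neutrophil list ran the other way: *mpp1*, a membrane scaffold gene, at rank 42, had 1314, 1268, 1573, 1265, 1345 and 1200 CPM, highest in sham 3 and lowest in sham 6. *csf3r*, the receptor for granulocyte colony-stimulating factor, is not on the list and also peaked elsewhere. It had 558.7 to 675.4 CPM, with its highest value in sham 1 and its lowest in sham 6. The lysozyme gene *lyz*, outside the 300, averaged 321.1 CPM.

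Of the 19 neutrophil markers found in the table, 5 were among the 300, and the list summed to 10794, 11341, 11455, 10734, 10240 and 13650 CPM in sham 1 to sham 6. Sham 6 was the highest library for the sum under each of the 3 scalings tried. Of the 18 markers on this list with at least 5 CPM, 8 were highest in sham 6, against 18.2% of all genes of at least 5 CPM. Thus the libraries labelled as macrophage-lineage cells held abundant neutrophil transcripts in every replicate, and whether these came from GFP-positive cells was not tested.

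The marker lists below, of other cell types, had at most 2 members each. Of all genes in the table, 1.31% were members. No member came from the lists of lymphoid cells, erythrocytes, thrombocytes, neurons, lens, keratinocytes, muscle, cartilage and fibroblasts, pigment cells, or pancreas, liver and gut. The summed level of 31 neuronal markers was 213 to 393 CPM, and that of 26 keratinocyte markers 85.6 to 182 CPM. Among these lists without a member, those of lymphoid cells and thrombocytes had the highest sums, with 660 to 869 CPM and 433 to 679 CPM. The list of neural progenitors and glia had 1 member, *glula*, a glutamine synthetase gene, with 664, 378, 540, 465, 619 and 356 CPM in sham 1 to sham 6. On the same list *notch1a* averaged 119.5 CPM and *cx43* 74.2 CPM, while *gfap* reached at most 3.52 CPM and *sox2* 1.63 CPM. This list summed to 720 to 1077 CPM, and 11 of the 24 genes found reached 1 CPM in every library. The endothelial list had the scavenger receptor *stab1* as its 1 member, with 616.8, 814.5 and 855.0 CPM as its lowest, median and highest values. Outside the 300, *fli1b* averaged 348.8 CPM and *mrc1a* 161.5 CPM, whereas *kdrl* averaged 1.51 CPM and *cdh5* 4.00 CPM. This list summed to 1298 to 1687 CPM, and 10 of the 20 genes found reached 1 CPM in every library. The epithelial list also had 1 member, *zgc:77517*, now named *krt18b*, a keratin gene, with 430.5 to 470.3 CPM. The genes of this list are shared with skin cells, called metaphocytes, that *mpeg1* reporters also label. Outside the 300, *krt8* averaged 232.2 CPM, *epcam* 10.5 CPM, and *cldnh* ranged over 6.37 to 82.7 CPM. The epithelial list summed to 801 to 959 CPM. The peripheral macrophage and dendritic cell list had 2 members, the mannose receptor *mrc1b* with 917.9 CPM and the chemokine receptor *cxcr3.2* with 529.6 CPM.

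Of the cell cycle lists, 1 of 20 S phase genes and 1 of 26 G2/M genes were members, against 1.31% of all genes in the table. *pcna*, the sliding clamp of DNA replication, was at rank 110 with 742.1 CPM, and *mki67*, a marker of proliferating cells, stood just outside. All 20 S phase genes and all 26 G2/M genes reached 1 CPM in every library. The S phase genes summed to 2424 to 3051 CPM, with a median gene level of 98.8 CPM. The G2/M genes summed to 3283 to 4130 CPM, with a median gene level of 42.3 CPM. The tubulin *tuba8l4*, with a mean of 1554 CPM, was the 1 member on the G2/M list.

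**Figure D3:**
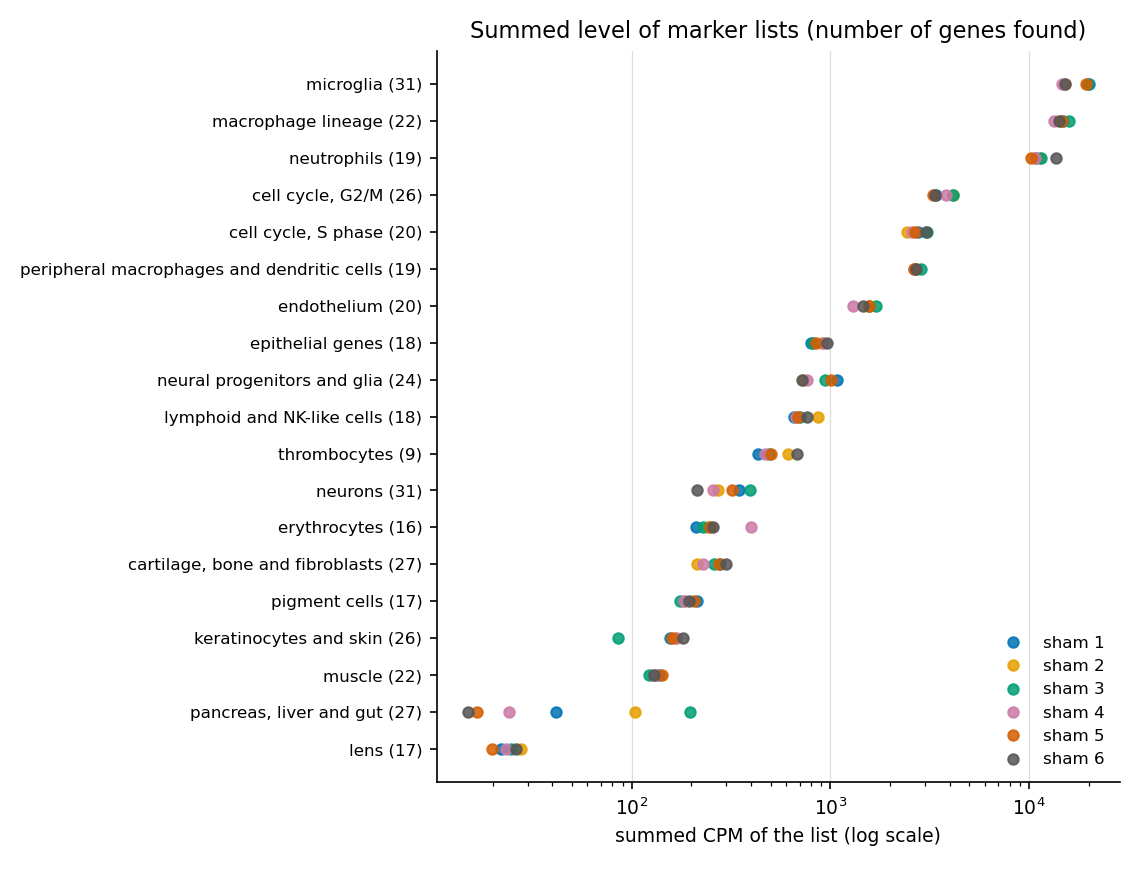
Summed level (CPM, log axis) of each marker list in each of the 6 sham libraries, 1 point per library. The macrophage lineage, microglia and neutrophil lists lie above 10000 CPM in all libraries, and the neuronal, lens, keratinocyte and muscle lists lie below 400 CPM.

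The highest gene of all was *AC024175.4*, a mitochondrial ribosomal RNA, with 62358 to 76344 CPM, and a further one, *AC024175.17*, was at rank 3 with 14137 to 19817 CPM. These 2 genes together took 8.05% to 9.73% of the reads on genes in a library. Between them stood *actb2*, cytoplasmic beta-actin, with 33933, 26338, 33736, 26467, 30466 and 30550 CPM in sham 1 to sham 6. *actb1*, at rank 6, had 8590 to 10625 CPM, and reads of these near-identical genes may have been divided between them by the alignment. *malat1*, a nuclear long noncoding RNA, was at rank 9 with 6314 CPM.

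Of the 300 genes, 131 fell into at least 1 of 19 functional classes set by gene symbol and 169 into none. Beside the class counts below, the 300 were 1.31% of all genes in the table and 2.62% of those of at least 5 CPM. The largest class was that of the ribosomal proteins, with 37 of the 89 in the table. They summed to 44820, 32037, 38122, 35210, 37770 and 31623 CPM in sham 1 to sham 6, with *rps3a*, *rpl4* and *rpl3* as the highest, at 2646, 2369 and 2355 CPM. Of the 37, 34 were highest in sham 1, under library size alone 36, whereas the lowest library was sham 6 for 21 and sham 2 for 15. Of all genes with at least 5 CPM, 13% were highest in sham 1, 12.6% under library size alone.

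A further 14 members were translation factors. They were led by the elongation factors *eef1a1l1*, rank 5, with 11681, 8644, 11962, 9736, 10372 and 10305 CPM, and *eef2b*, rank 8, with 5918 to 7907 CPM. *pabpc1a*, which binds the poly(A) tail of mRNA, was at rank 20 and varied little, with 2099 to 2549 CPM. The translation factors took 6.80% of the reads on the 300 and the ribosomal proteins 9.02%.

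Of the 13 protein-coding mitochondrial genes, 9 were members, led by the cytochrome oxidase subunits *mt-co1*, with 10310 to 12974 CPM, and *mt-co3*, with 2531 to 3093 CPM. *mt-nd4*, a subunit of complex I, followed with 2060 to 2614 CPM, and *mt-nd2*, *mt-nd5* and *mt-cyb* had coefficients of variation (CV, the SD divided by the mean) of 23.6%, 22.2% and 18.7%. By contrast, 3 of 118 nuclear genes of oxidative phosphorylation were members, the ATP synthase subunits *atp5b* and *atp5a1* with 1156 and 576.1 CPM and the oxidase subunit *cox4i1* with 409.1 CPM. Of 28 glycolysis genes, *gapdhs* with 756.9 CPM and *aldoaa* with 546.8 CPM were members. The pentose phosphate enzyme *pgd* and the isocitrate dehydrogenases *idh1* and *IDH2*, which yield NADPH, were members with 529.8, 403.9 and 461.4 CPM.

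Heat shock and folding genes gave 5 members. The constitutive chaperones *hspa8* and *hsp90ab1* were at ranks 7 and 11, with 6395 to 8102 CPM and 4006 to 5134 CPM. *ppiaa*, a peptidyl-prolyl isomerase gene of the cyclophilin family, was at rank 30 with 1643 to 2136 CPM. *hspa5*, the chaperone of the endoplasmic reticulum, was at rank 295 and had 570 CPM in sham 1, above 273 to 394 CPM in the other libraries. No gene of the proteasome and ubiquitin class was among the 300, the best placed being *ube2d2* at rank 817 with 189.3 CPM.

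The actin cytoskeleton class had 15 members and took 12.9% of the reads on the 300, most of them on the 2 actins. Others were *pfn1*, profilin, with 1842 to 2367 CPM, and *cap1*, which recycles actin monomers, with 1345 to 1714 CPM. *elmo1*, which acts with Dock proteins in cell movement, had 576, 600, 579, 555, 564 and 555 CPM in sham 1 to sham 6. The 3 tubulins *tuba8l4*, *tubb2b* and *tubb4b* were all highest in sham 3, and together had 3659, 3635, 4640, 3485, 3480 and 3443 CPM. They were also highest in sham 3 under library size alone and under median-of-ratios scaling.

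Lysosomal genes made up 18 members of 111 in the table and summed to 14310, 15650, 17973, 14954, 14659 and 17275 CPM in sham 1 to sham 6, highest in sham 3 and sham 6. They included the cathepsins *ctsba*, with 1676 to 2140 CPM, and *ctsc*, with 1418 to 1926 CPM, and the saposin precursor *psap*, with 1300 to 1815 CPM. *lgmn*, an asparaginyl endopeptidase of lysosomes, had 1086, 1398 and 1764 CPM as its lowest, median and highest values. *npc1*, which exports cholesterol from lysosomes, averaged 590.5 CPM.

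The 3 subunits of the vacuolar proton pump, which acidifies lysosomes, varied more, and were grouped after the values were seen. *atp6v0ca* had 848, 1076, 1398, 862, 815 and 1299 CPM, *tcirg1b* had 541, 766, 1003, 616, 608 and 873 CPM, and *atp6v1ba* ranged over 341 to 521 CPM. All 3 were highest in sham 3, also under the other scalings, as were 25.1% of all genes of at least 5 CPM, and their sum had a CV of 22.4%. *cybb*, the catalytic subunit of the phagocyte NADPH oxidase, had 700, 875, 1344, 807, 764 and 1180 CPM, so sham 3 and sham 6 were also its highest libraries.

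Of 103 cytokine and receptor genes, 5 were members: *csf1ra*, *csf1rb*, *csf3r*, *il6r* and *il16*. *il6r*, an interleukin-6 receptor gene, had 435, 575, 488, 414, 458 and 856 CPM, with sham 6 far above the others. Of 66 chemokine genes and receptors, *cxcr3.2* was the 1 member, and of 36 genes of antigen presentation, *canx* and *pdia3*, which fold glycoproteins in the endoplasmic reticulum, were the 2 members. The class II gene *mhc2dab* averaged 0.508 CPM. No complement gene was found by symbol, the best placed being *cfp* at rank 614 with 234.7 CPM, although the member *zgc:158446*, with 669.2 to 1095 CPM, is now named *cfbl*.

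Leukocyte signalling proteins formed a group of 10, chosen after the values were seen, with 5733 ± 277 CPM in sum (SD, n = 6). *inpp5d*, a lipid phosphatase of blood cells, had 705, 723, 675, 696, 738 and 696 CPM. *ptprc*, encoding the phosphatase CD45, had 570.6 to 697.9 CPM, *ptpn6* 433.0 to 504.3 CPM, and the Src-family kinase gene *hck* 571.3 to 717.0 CPM. None of these 4 genes had a CV of 10% or more. Over all 10 genes of the group, the CV ran from 3.15% to 15.4%. The 14 adhesion proteins and surface receptors, also grouped after the values were seen, summed to 9954 ± 565 CPM (SD, n = 6). They included *itgb2*, the beta subunit of leukocyte integrins, with 899.0 to 1172 CPM, and *havcr1*, a phosphatidylserine receptor, with 638.2 to 785.6 CPM. *entpd1*, which breaks down extracellular ATP, had 337.3 to 470.3 CPM.

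Solute carriers, also grouped after the values were seen, gave 12 members, with *slc25a5*, the mitochondrial ADP/ATP carrier, at rank 29. Of the 12, 8 were highest in sham 3 (6 under library size alone). Sham 3 was the highest for 25.1% of all genes of at least 5 CPM (18.8%) and 39.7% of the 300. *slc25a5* had 1393 CPM in sham 2 and 1837 to 2019 CPM in the others. The amino acid transporter genes *slc43a2a*, *slc7a8a*, *slc3a2a* and *slc7a7* had 1087, 813.9, 602.1 and 435.1 CPM. *slc7a7* is needed for microglia to form in zebrafish. *slc40a1*, the iron exporter ferroportin, was the 1 member of 16 iron genes, with 460.3 to 584.3 CPM.

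Among regulators of transcription and chromatin, likewise grouped after the values were seen, 13 members summed to 7279 ± 336 CPM (SD, n = 6). Beside *spi1b* and *spi1a* they included *cebpa*, a myeloid transcription factor, with 341.8 to 477.9 CPM, and *ahr2*, an aryl hydrocarbon receptor gene, with 394.6 to 565.2 CPM. The member that varied least of all was *kmt2bb*, a histone methyltransferase gene, with 386, 409, 384, 393, 390 and 397 CPM. Of 58 genes that symbol patterns put in the immediate early class, 4 were members, against 1.31% of all genes in the table. These were *txnipa*, *zfp36l1a*, *ZFP36* and *btg1*, with 705.6, 575.1, 509.5 and 452.5 CPM. Of 116 genes for splicing and RNA-binding proteins, *cirbpb*, *ybx1*, *rbm47* and *cirbpa* were members, with 885.5, 615.7, 606.3 and 517.8 CPM. The 4 members of the histone and chromatin class were *hmga1a* with 1077 CPM, *ptmab* with 423.0 CPM and *h3f3b.1* under 2 identifiers, with 499.2 and 424.1 CPM, whose reads may be shared.

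**Figure D4:**
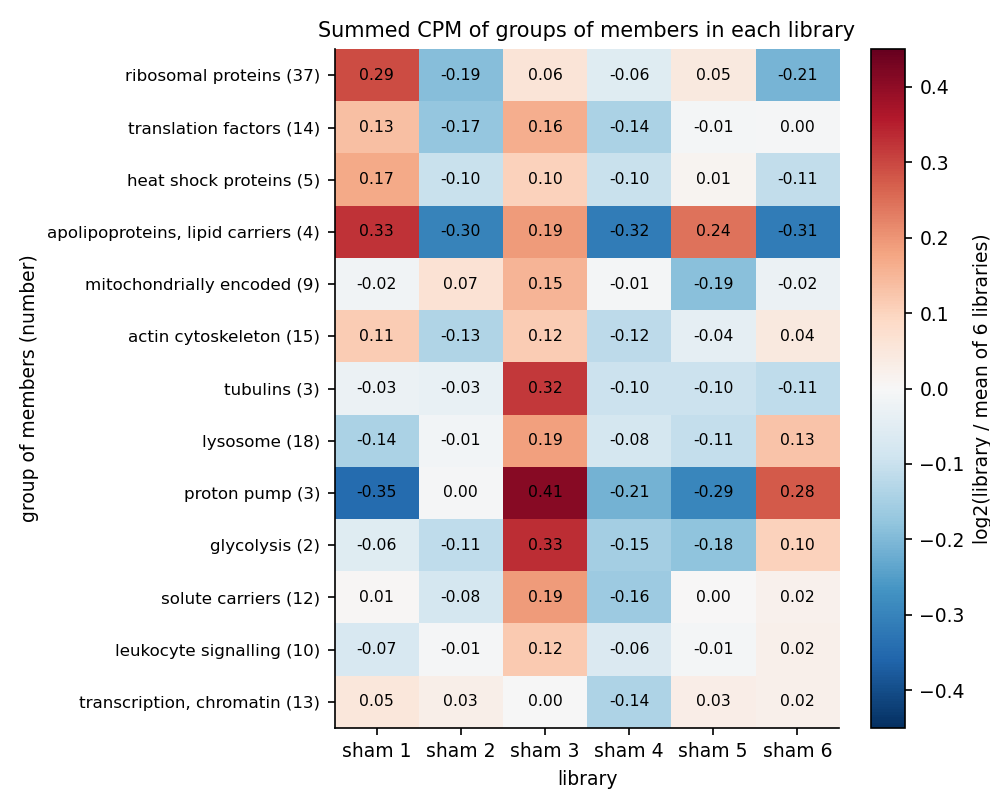
Log2 ratio of the summed level of each gene group among the 300 in each sham library to its mean over the 6 libraries, as a heat map with groups down the page and libraries across. The ribosomal proteins are at 0.29 in sham 1, the lipid genes at 0.33 in sham 1 and -0.32 in sham 4, and the proton pump at 0.41 in sham 3 and -0.35 in sham 1.

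The spread between replicates was measured as the CV over the 6 libraries. Over the 300 genes the median CV was 11.4%, with quartiles at 8.77% and 14.8%, and 11.3% after the part due to counting was removed. For the 11447 genes of at least 5 CPM, the median was 21.6%, and it grew along the ranking, with 11.5% over the 300 genes that follow, up to rank 600, 17.5% at ranks 2501 to 5000 and 26.6% at ranks 5001 to 10000. Thus 112 of the 300 genes had a CV under 10%, and 31 had a CV over 20%. The highest value was less than 1.5 times the lowest for 228 of them and more than 2 times for 7.

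The largest CV was that of a gene with a placeholder name. *zgc:158463*, at rank 14, had 3324, 2379, 5007, 2472, 2179 and 3892 CPM, a CV of 34.2%. *zgc:110340*, now named *TCIM*, had 526, 385, 291, 379, 587 and 263 CPM, a CV of 31.6%. *si:ch211-194m7.3*, now named *olmf4l1*, had 368, 569, 753, 509, 376 and 752 CPM, a CV of 30.9%. *zgc:158463* was highest in sham 3 and *zgc:110340* in sham 5, while sham 3 and sham 6 were nearly level for *si:ch211-194m7.3*, with sham 6 on top under library size alone. Others in this group were *il6r* with 30.8%, *mmp9* with 28.4%, the ribosomal RNA *si:dkey-77p23.6* with 28.3%, *cybb* with 27.2%, and *pygb*, a glycogen phosphorylase gene, with 27.0%. *hspa5* followed with 26% and *apoc1* with 25.8%. The antisense gene *si:dkey-81l17.7* had a CV of 22.7%, and its reads cannot be told apart from those of its partner where counting ignored strand.

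The smallest CVs were several times lower. After *kmt2bb* with 2.31% and *elmo1* with 3.0% came *inpp5d* with 3.15%, the keratin *zgc:77517* with 3.48%, and *arrb2b*, a beta-arrestin gene, with 3.69%. *birc6* had 3.88%, *coro1a* 4.94%, *fmnl1a* 5.03%, *itm2bb* 5.44% and *myl12.1*, a regulatory light chain of nonmuscle myosin, 5.49%.

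**Figure D5:**
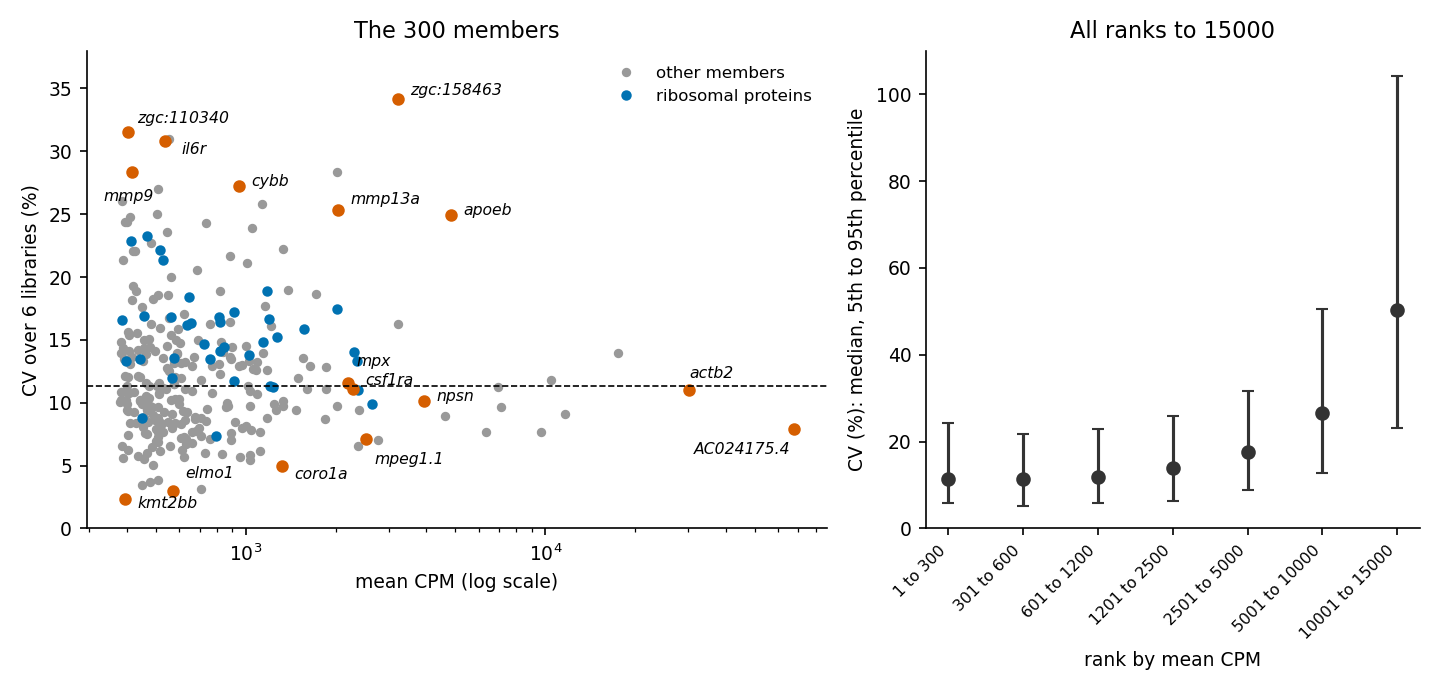
Left, CV over the 6 sham libraries (percent) against mean level (CPM, log axis) for each of the 300 genes, with ribosomal proteins in blue, single named genes in orange and a dashed line at the median of 11.4%. Right, median CV by range of ranks, with bars between the 5th and 95th percentiles over genes; the medians are 11.4% for ranks 1 to 300 and 50.3% for ranks 10001 to 15000.

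The libraries did not share the highest values evenly. Sham 3 was the highest library for 119 of the 300 genes, or 39.7%, and for 25.1% of all genes of at least 5 CPM, and under library size alone for 65 and 18.8%. Sham 1 was the highest for 82 members, of which 34 were ribosomal protein genes. Sham 6 was the highest for 48 members and 18.2% of all genes, sham 2 for 25 and 14.9%, sham 5 for 15 and 16.4%, and sham 4 for 11 and 12.3%. Under library size alone these counts of members were 59, 41, 23 and 19, in the same order of libraries. The TMM factors were 0.976 for sham 3 and 1.02 to 1.06 for the others, and their part in the order of the libraries is shown by the values under library size alone. By the Dixon ratio, which compares the gap of an extreme value with the whole range, 1 library stood apart for 21 of the 300 genes, or 7%, near the 7.53% of all genes of at least 5 CPM. In 17 of the 21 the library apart was the highest, in 12 of them sham 3. How these counts compare with all genes was not computed. Under library size alone a library stood apart for 18 members, with 12 of the 21 keeping the same library. Among the sham 3 genes, *tspan36*, *tubb2b*, *arhgdia*, *aplp2*, *cbl*, *pdcd6ip* and *ccng1* were then no longer apart.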

How the data were processed

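RNA-seq libraries of GFP-positive head cells from sham *mpeg1:GFP* larvae (6 libraries, 4 dpf) were examined. The labels name an Ovation RNA-Seq System for amplification and a TruSeq kit for the libraries. The submitters' processing notes name cutadapt 1.9, STAR 2.5.2b, featureCounts 1.5.1, edgeR 3.20.1 and the build GRCz10. The annotation release, the strand setting and the threshold of the low-count filter are not given in the sources used here.

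The authors deposited signal values, CPM scaled with TMM factors, with 1 value per gene and library. Whole reads were recovered from them for 100% of values, within 0.01 of a whole number. The table also holds mean CPM and comparison columns made by the authors (fold changes, p-values), and 3 further per-sample columns. None of these was used.

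Genes were ranked by the mean over the 6 libraries, and the 300 highest were kept. CV and the Dixon ratio (critical value 0.625 for 6 samples) were computed with Python 3.11.15, numpy 2.4.6 and pandas 2.3.3, and figures were drawn with matplotlib 3.10.9. No test was run. Classes came from symbol patterns and markers from lists. Of the 300 genes, 296 were matched in the name table, and 90.6% of all identifiers. The scripts were tested on simulated data. Alternatives were other scalings, filters, list sizes, statistics and leaving out each library.

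The members, classes and lists were chosen with earlier results of these data known. Named genes were the 20 highest, *mpeg1.1*, *apoeb*, *csf1ra* and *mpx*, the 3 highest of each class and list, members on lists of other cell types, the 10 largest and 10 smallest CVs, and ranks 299 to 302. Leading genes of the lists that lie outside the 300 are mostly left unnamed. Other named genes, and the groups said to be so, were chosen after their values were seen. Levels of near-identical copies, such as *actb1* and *actb2* or *rpl5a* and *rpl5b*, are uncertain, and those of related genes such as *ctsla* and *ctsl.1* may be. A withheld item, and the marker list and gene group that need it, are not reported here.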

Additional observations from a re-analysis of the deposited data

Results flagged for a closer look

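A library stood apart from the other 5 by the Dixon ratio for the following genes and sums. Chance flags about 1 in 20 groups of samples, and 7.53% of all genes of at least 5 CPM were so marked.

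Sham 3 was the library apart, and the highest, for the cathepsin *ctsba* with 2140 CPM, the tubulins *tuba8l4* with 1975 CPM and *tubb2b* with 1441 CPM, *tspan36* with 1464 CPM, *arhgdia* with 1013 CPM, and *slc7a8a* with 1017 CPM. The same held for *aldoaa* with 680.8 CPM, *aplp2* with 583.9 CPM, *vat1* with 561.3 CPM, *cbl*, a ubiquitin ligase gene, with 525.9 CPM, *pdcd6ip* with 489.9 CPM and *ccng1* with 459.7 CPM. Outside the 300, it held for *MFAP4* with 362.5 CPM and the pancreatic *ctrb1* with 19.6 CPM. It also held for the summed tubulins with 4640 CPM and the peripheral macrophage and dendritic cell list with 2863 CPM, although under library size alone that list was highest in sham 2, with 2845 CPM, against 2795 CPM in sham 3. Sham 3 was the lowest for *kmt2d* with 359.4 CPM, for the keratin *krt91* with 4.83 CPM and for the keratinocyte list with 85.6 CPM.

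Sham 6 was apart and highest for *mmp13a* with 3006 CPM, against 1570 to 2074 CPM in the others, for *il6r* with 855.7 CPM, for *lasp1* with 477.9 CPM, and for the neutrophil list with 13650 CPM. Sham 1 was apart and highest for the ribosomal protein genes *rpl10a* with 1463 CPM and *rpl12* with 733.5 CPM. Sham 4 was apart and highest for the haemoglobin *hbae3* with 55.8 CPM and the erythrocyte list with 397.9 CPM, and lowest for *adam10a* with 376.3 CPM. Sham 2 was the lowest for *slc25a5* with 1393 CPM, and sham 5 for *hcfc1b* with 380.2 CPM. Under library size alone, 18 members had a library apart, of which 12 are among the 21 listed here. The gap of *mmp13a*, *tspan36*, *tubb2b*, *arhgdia*, *il6r*, *aplp2*, *cbl*, *pdcd6ip* and *ccng1* no longer passed. The neutrophil list also no longer passed, with a ratio of 0.612, against 0.644 with the TMM factors. Under median-of-ratios scaling all 21 remained. The part of cell make-up or of library preparation in these values was not tested.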

How the results depend on the processing

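The 300 genes were nearly the same under each scaling, statistic and left-out library tried: at least 294 remained without 1 library, and at least 296 under the other choices. The median CV of 11.4% was 10.7% under library size alone and 10.1% as a scaled median absolute deviation, and 10.8% to 11.7% without 1 library. The 13010 genes of at least 1 CPM in every library became 13104 to 13406 without 1 library, a count that cannot fall when a library is left out. With no filter the value was 22953, but this counts genes with a read in at least 1 library. A read in every library was found for 16732 genes, and 9 genes had 0 reads in all libraries. The share of members in a class, 43.7%, was 62.0% in the 100 highest and 34.2% in the 600 highest genes. Genes highest in sham 3 fell to 65 under library size alone, against 119, and those with sham 1, sham 3 and sham 5 on top to 47, against 72. Levels of single genes were also taken under the other scalings and without each library, as 976 alternatives. Of these, 974 moved by less than 1 SD. Leaving out 1 of 6 values cannot move a mean by 1 SD, so for those alternatives this outcome was fixed beforehand. The 2 that moved were *kmt2bb* under the other scalings, with 404.6 and 404.3 CPM against 393.2 CPM. This gene had the smallest CV of the 300, and its SD was 9.09 CPM. The causes were not tested. Levels per coding length were planned and not run, since no coding lengths were at hand. No paired analysis was possible because only 1 group was used. Amplified RNA and pooled larvae limit what the spread can say about single animals.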
